A study of Arabidopsis thaliana with 2 samples.

Results

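Nuclear genes for the photosystems, their light-harvesting antenna and the supply side of carbon fixation were compared between axr4-2 and wild-type Arabidopsis thaliana. The genes were chosen by name: nuclear loci whose symbol or RefSeq name marks a photosystem subunit, an antenna protein, the Rubisco small subunit, Rubisco activase or phosphoribulokinase, each read by a probe set that the platform annotation ties to 1 locus. Of 57 such loci in the RefSeq gene table, 10 had a probe set of this kind, out of 13356 genes named on the array. The other 47, which include the LHCA, LHCB1, LHCB2, LHCB3, LHCB5, LHCB6, PSBO, PSBP, PSBQ and Rubisco small subunit genes, are not analysed here. None of the 47 was among the probe sets named for several genes, while 8794 of 22810 probe sets had no gene named in the annotation used. Their lack of a value is thus no sign that the array has no probe set for them. The 10 genes are LHCB4.1, LHCB4.2 and LHCB4.3 of the antenna, PSAE-1 and PSAN of photosystem I, PSBW, PSBY and PSB27 of photosystem II, and RCA and PRK of carbon fixation.

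The mutant plants were of the auxin-resistant line axr4-2, labelled as a mutant in the Col0 ecotype, on 1 array. The wild-type plants were Col0, labelled as the control, on 1 array. Both were whole plants kept in light for 24 h per day at 22 °C, with growth stage 1.02 in the labels. The source names also carry the code 3do, which the labels do not explain and which may give an age. RNA was hybridised to ATH1 arrays from Affymetrix, which use 1 colour and measure a transcript with several short probes, together called a probe set. With 1 array per genotype no value below has a test, a p-value or an SD between replicates, and precision is limited by the number of arrays.

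In plants, photosystem II and photosystem I act in series in the thylakoid membrane of the chloroplast, moving electrons from water to ferredoxin, while antenna proteins that carry chlorophyll collect light for both. Each photosystem is built from chloroplast-encoded reaction centre subunits and nuclear-encoded subunits that are imported into the chloroplast. Transcripts of the nuclear genes are abundant in green tissue, rise with light and are known to be under control by phytochromes, cryptochromes and signals from the chloroplast. The AXR4 protein, which resides in the endoplasmic reticulum, helps the auxin influx carrier AUX1 reach the cell surface.

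The 10 genes had nearly the same signal in axr4-2 and in wild-type plants. None was 2-fold or more apart, where 2.41% of the 6381 measured genes were (60 higher, or 0.94%, and 94 lower, or 1.47%). In the brightest of 4 groups of measured genes of equal size, to which all 10 belong, the share was 0.75%. For most of the 10, a 2-fold rise over wild type would have passed 4601, the highest intensity of any probe set in axr4-2. That none was 2-fold higher was thus close to fixed in advance for these genes. Whether ratios were compressed near this limit was not tested. The log2 ratios of axr4-2 over wild type ran from -0.19 to 0.28 with a median of 0.07, beside a median of -0.04 over all measured genes; centred on spike-in controls, the median of the 10 turned to -0.02. Of the 10, 7 lay above 0 and 3 below, where 45.7% of measured genes lay above 0; with the spike-in centring, 4 of the 10 lay above 0. Measured genes are those with a higher value at or above the median intensity of its array (39.5 in axr4-2 and 42.7 in wild type), and all 10 passed on both arrays. These are whole-plant values, in which the number of green cells and the transcript per cell cannot be told apart.

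**Figure D1:**
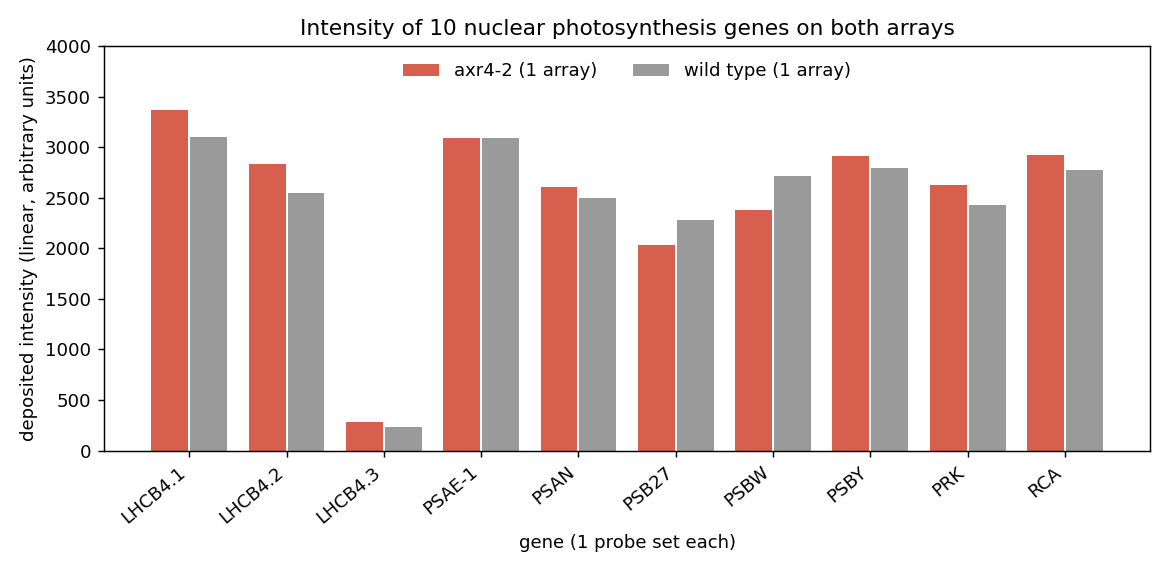
Deposited intensity (linear, arbitrary units) of the 10 genes, with 1 bar for the axr4-2 array and 1 for the wild-type array; there are no error bars because each genotype has 1 array, and bar heights of different genes are not comparable because each probe set binds with its own strength. The pair of bars is nearly level for every gene, with axr4-2 at most 21.2% above wild type (LHCB4.3) and at most 12.1% below it (PSBW).

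The antenna genes analysed here all encode CP29, a monomeric chlorophyll protein that sits between the outer antenna trimers and the core of photosystem II. LHCB4.1 read 3366 in axr4-2 against 3095 in wild type, or 0.12 as a log2 ratio. LHCB4.2 read 2836 in axr4-2 and 2551 in wild type (0.15). LHCB4.3, the most divergent CP29 gene, read 288 in axr4-2 against 237.7 in wild type, for the highest log2 ratio of the 10, 0.28. All 3 CP29 genes were thus slightly higher in axr4-2, by 8.75% to 21.2%. The isoforms differed little from each other: LHCB4.2 lay 0.03 and LHCB4.3 0.16 above LHCB4.1 on the log2 ratio scale. Each is read by its own probe set, and none of these is of the kind marked as shared between transcripts.

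Photosystem I was represented by 1 subunit from each side of the membrane. PSAE-1 encodes a stromal subunit beside the docking site of ferredoxin, and read 3087 in axr4-2 and 3089 in wild type, with a log2 ratio of -0.00. PSAN encodes a lumenal subunit on the side where plastocyanin delivers electrons, and had 2606 in axr4-2 against 2499 in wild type (0.06, and -0.03 when centred on spike-in controls). The pair was 0.06 apart in log2 ratio. In the deposited scaling PSAE-1 had the smallest difference of the 10, but with quantile normalization PSAN (0.00), PSBY (-0.01) and RCA (0.01) were closer to 0 than PSAE-1 (-0.03).

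Photosystem II held the lowest ratios of the set. PSBW, a small membrane subunit that helps hold the core and the antenna together in supercomplexes, read 2383 in axr4-2 and 2711 in wild type, with a log2 ratio of -0.19. PSB27, a lumenal protein that binds photosystem II during assembly and repair and is no permanent subunit, read 2029 in axr4-2 and 2280 in wild type (-0.17). PSBY, whose product is cut into a pair of small membrane proteins, lay on the other side of 0, with 2917 in axr4-2 and 2790 in wild type (0.06). PSBW and PSB27 were therefore 12.1% and 11.0% lower in axr4-2, whereas PSBY was 4.53% higher, a direction that quantile normalization and spike-in centring turned. The median of the CP29 genes (0.15) was 0.32 above that of the photosystem II genes (-0.17). The highest photosystem II gene, PSBY, lay 0.06 below the lowest CP29 gene, LHCB4.1. The photosystem I genes, RCA and PRK also lay below LHCB4.1, so this order is not particular to photosystem II. The photosystem II median is the value of PSB27, and with single arrays its distance from the CP29 median has no replicate check.

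The genes for carbon fixation enzymes were both slightly higher in axr4-2, although RCA turned to -0.01 when centred on spike-in controls. RCA encodes Rubisco activase, which frees Rubisco of inhibitory sugar phosphates, and read 2927 in axr4-2 and 2775 in wild type (0.08). PRK encodes phosphoribulokinase, which makes the sugar that Rubisco carboxylates, and read 2630 in axr4-2 and 2432 in wild type (0.11). They were 0.04 apart in log2 ratio. SBPASE encodes another enzyme of the cycle that regenerates this sugar. It was the single gene of 17 on a Calvin cycle list with a probe set tied to 1 locus. Its signal was 2434 in axr4-2 and 2433 in wild type (0.00).

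Ordered by log2 ratio, the 10 genes ran from LHCB4.3 through LHCB4.2, LHCB4.1, PRK, RCA, PSBY, PSAN, PSAE-1 and PSB27 to PSBW. The largest step between neighbours in this order was 0.17, between PSAE-1 and PSB27. Each of the 10 genes has 1 probe set, so none could be checked against another reading of the same transcript. In 30 other genes with a pair of measured probe sets, the pair implied an SD of 0.41 for the log2 ratio of a single probe set. This SD exceeds every ratio and every step among the 10. The 30 genes were taken without regard to brightness, so the SD is not specific to probe sets as bright as most of the 10. For 18 bacterial spike-in probe sets the log2 ratios averaged 0.09 (SD 0.18 across probe sets).

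Apart from LHCB4.3, the genes were among the brightest on both arrays, where ratios of all genes scattered least. The other 9 lay between percentiles 99.3 and 99.9 of all probe sets in axr4-2 and between 99.5 and 99.9 in wild type. LHCB4.3 lay at percentile 89.7 in axr4-2 and 87.6 in wild type. When measured genes were divided by brightness into 4 groups of equal size, the SD of the log2 ratio was 0.53, 0.40, 0.36 and 0.31 from the dimmest to the brightest group. A fairer background for the 9 genes is the set of other genes whose value reached 2029, the lowest among the 9, on both arrays. These 36 genes had a median log2 ratio of -0.00 and an SD of 0.15, against a median of 0.06 and an SD of 0.12 for the 9. Of the 36, 28 (77.8%) fell within the range of the 9, from -0.19 to 0.15, so most genes of this brightness had ratios as small. None of the 36 was 2-fold or more apart. The brightness limit was set after the values had been seen. The highest intensity of any probe set was 4601 in axr4-2 and 4592 in wild type. This limits how far genes of this brightness could rise, so the lack of 2-fold higher genes among them says little.

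**Figure D2:**
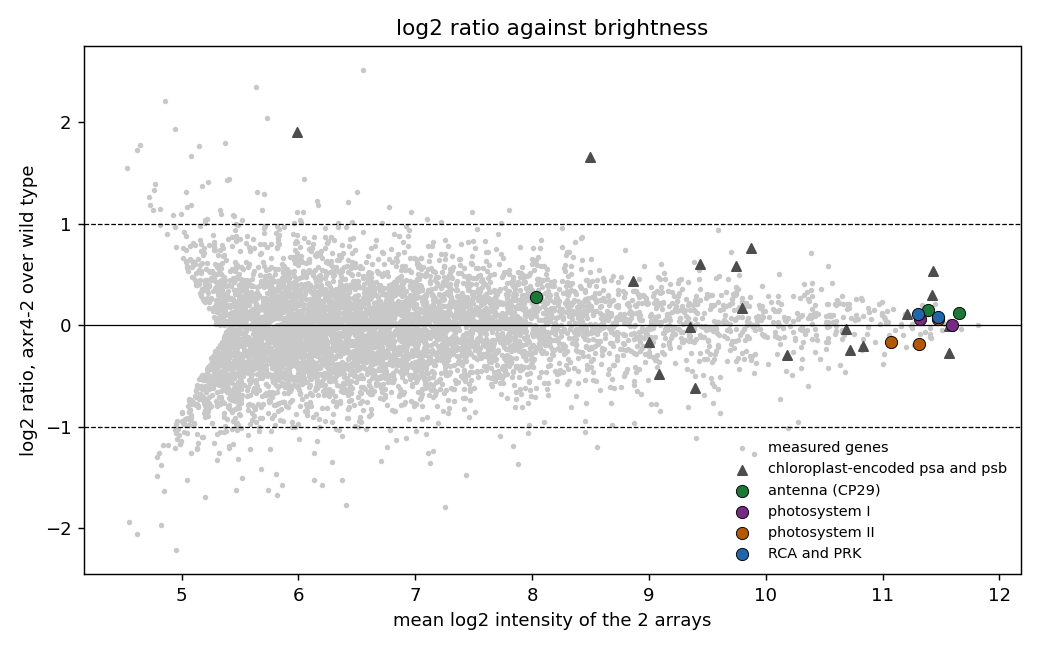
log2 ratio of axr4-2 over wild type (vertical axis) against the mean log2 intensity of the arrays (horizontal axis), with 1 point per measured gene in grey, the 10 nuclear genes as coloured circles by role and the chloroplast-encoded psa and psb genes as triangles; dashed lines mark a 2-fold difference. The circles lie between -0.19 and 0.28, 9 of them at the bright end, while the triangles spread from -0.62 to 1.91. The highest triangle, psbN, passed the filter through its axr4-2 value alone.

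The chloroplast-encoded genes with psa or psb symbols varied more between the arrays. These 20 genes had log2 ratios from -0.62 (psbD, which encodes the D2 reaction centre protein) to 1.91 (psbN). Their median was 0.05 and their SD 0.65 across genes, against an SD of 0.14 across the 10 nuclear genes. At the top of this range, psbN read 122.5 in axr4-2 and 32.7 in wild type, below the wild-type array's median of 42.7. It thus passed the filter through its axr4-2 value alone, and the median, SD, ranges and counts given here for the chloroplast genes include it. Of the 20, 6 (30.0%) fell within the range of the nuclear genes, as did 46.4% of the measured genes other than the 10, and 2 were 2-fold or more higher (0.94% of all measured genes). Within photosystem I, PSAE-1 and PSAN (-0.00 and 0.06) compare with -0.25 to 1.65 over 5 psa genes. Within photosystem II, the 3 nuclear genes (-0.19 to 0.06) compare with -0.62 to 1.91 over 15 psb genes. Apart from psbN, the highest psb gene was psbB, at 0.76. The chloroplast set includes dimmer genes, but psbA, whose D1 protein pairs with D2 in the reaction centre, read 3333 in axr4-2 against 2302 in wild type (0.53), and psbC, which encodes a core antenna protein, read 2762 in axr4-2 and 3334 in wild type (-0.27). Of 5 chloroplast genes as bright as the 9 nuclear genes, these 2 and psbM (0.30) lay outside the range of the 9, from -0.19 to 0.15, while psaB (-0.01) and psaJ (0.11) lay inside it. The difference in spread was not tested.

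Genes of related steps in photosynthesis, from lists written by name, were also set side by side. For electron carriers and the chloroplast ATP synthase, 3 of 13 listed genes had a probe set tied to 1 locus, and all 3 were measured. ATPC1, the main gamma subunit gene of the ATP synthase, read 2430 in axr4-2 and 2280 in wild type (0.09). Its dim paralog ATPC2 was at 0.30 (46.5 in axr4-2 and 37.9 in wild type), and PGRL1B, which acts in cyclic electron flow around photosystem I, was at -0.12. None of the 3 was 2-fold apart.

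For chlorophyll synthesis, 9 of 24 listed genes had a probe set tied to 1 locus. Of these, 8 were measured, with a median log2 ratio of 0.04 and no gene 2-fold apart. The highest was GSA1, an early enzyme of the pathway, with 335.7 in axr4-2 and 294 in wild type (0.19). The lowest was CHLI2, a subunit of the magnesium chelatase, with 198.3 in axr4-2 and 256.8 in wild type (-0.37). PORB, which encodes a light-dependent protochlorophyllide oxidoreductase, read 545.9 in axr4-2 and 536.1 in wild type (0.03). PORA and PORC, also on the list, have no value here.

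Of 28 listed assembly and repair factors, 5 had a probe set tied to 1 locus. All 5 were measured, with a median log2 ratio of -0.14 (-0.06 with the lowess trend removed) and none 2-fold apart. Below 0 were 4 of the 5 (3 with median centring), where 54.1% of all measured genes were. None of the ratios reached the SD of 0.41 given above, which was taken without regard to brightness. LPA2, a factor for photosystem II assembly, read 200.5 in axr4-2 and 255.3 in wild type (-0.35). PAM68, which also acts in photosystem II assembly, read 247.2 in axr4-2 and 298.8 in wild type (-0.27). LPA1, a further assembly factor of photosystem II, was the highest at 0.01, and HCF101, which acts in iron-sulphur cluster supply to photosystem I, was at -0.03.

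**Figure D3:**
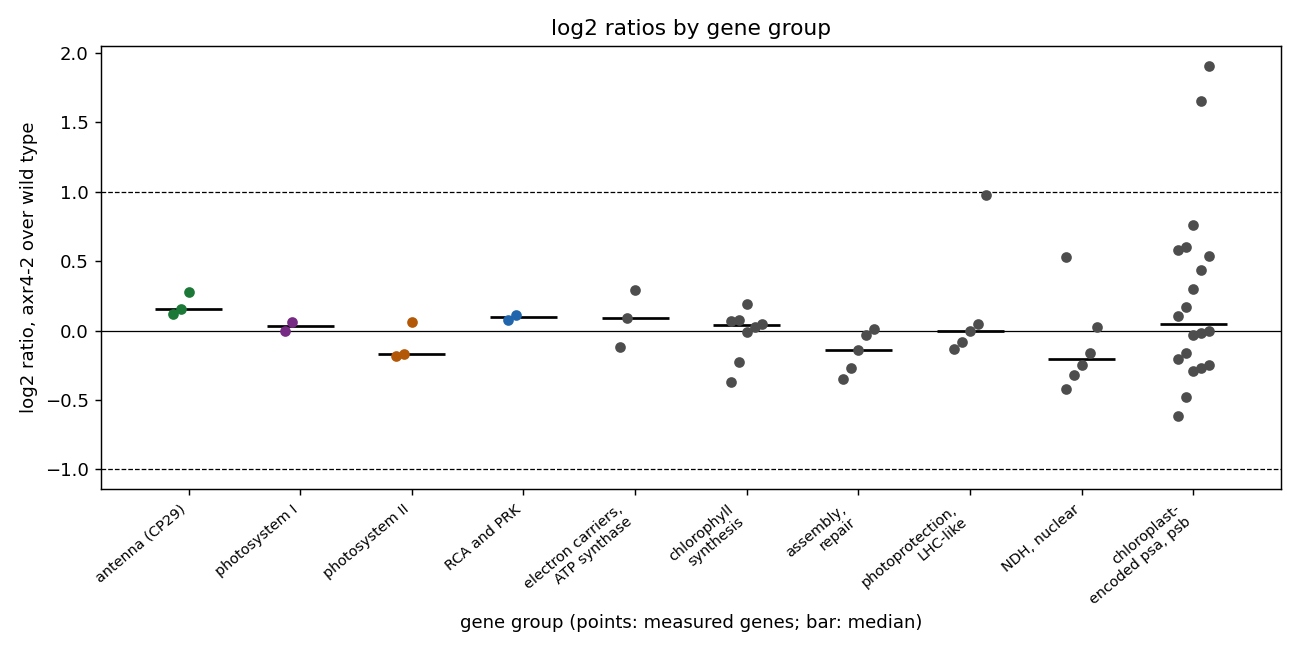
log2 ratio of axr4-2 over wild type for each measured gene (points) by group, with the group's median as a bar and dashed lines at a 2-fold difference; the 4 groups at the left are the 10 nuclear photosystem, antenna and carbon fixation genes. The CP29 points (0.12 to 0.28) lie above the points of the other groups at the left, among them photosystem II (-0.19 to 0.06). Points beyond the dashed lines occur in the chloroplast-encoded group, where psaA and psbN are at 1.65 and 1.91. Of this pair, psbN passed the filter through its axr4-2 value alone.

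Of 12 listed genes for photoprotection, thylakoid shape and proteins related to the antenna, 5 had a probe set tied to 1 locus. All 5 were LIL3 or CURT1 genes, so no listed photoprotection gene such as NPQ4 has a value here. The 5 were all measured, with a median log2 ratio of -0.00 and 1 gene apart from the rest. The LIL3 genes encode membrane proteins of the light-harvesting family that act in chlorophyll supply, and lay at 0.05 (LIL3:1) and -0.00 (LIL3:2). Of the CURT1 genes, which encode proteins that bend thylakoid membranes at the edges of grana, CURT1A (AT4G01150) was at -0.08 and CURT1C (AT1G52220) at -0.13. CURT1D (AT4G38100) read 169.7 in axr4-2 and 86.1 in wild type, with a log2 ratio of 0.98 that came to 2-fold or more with median centring (1.02) and with the lowess trend removed (1.01). HYH, a bZIP factor related to the light-signalling regulator HY5, was the single gene of 26 listed regulators with a probe set tied to 1 locus. Its signal was 211.7 in axr4-2 and 174.1 in wild type (0.28).

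The labelled tissue is the whole plant, and the arrays held both green and root signal. Besides the shoot genes above, PYK10, an abundant root beta-glucosidase, read 2982 in axr4-2 and 2967 in wild type (0.01). The root hair expansin genes EXPA18 (0.06) and EXPA7 (-0.30) were the other root markers of 18 listed with a probe set tied to 1 locus. Of 16 listed seed genes, 2 had a probe set tied to 1 locus. PAP85, a seed storage protein gene, was measured, with 19.4 in axr4-2 against 56 in wild type (-1.53). It passed the filter through its wild-type value alone, while LEA4-5 was below the filter with 6.6 in axr4-2 and 2.8 in wild type. Control probe sets for RNA integrity differed between the arrays, with a signal of 3′ over 5′ probe sets of 2.12 in axr4-2 against 3.23 in wild type (actin), 1.81 in axr4-2 against 2.26 in wild type (ubiquitin), and 1.05 in axr4-2 against 1.03 in wild type (GAPDH). Scan background, per the labels, averaged 70.79 for axr4-2 and 80.02 for wild type. The part of either in the ratios above was not tested.

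The sign of the smallest ratios depended on how the arrays were scaled. With ratios centred on the median gene, PSAE-1 turned to 0.04, and with quantile normalization PSBY turned to -0.01. Centring on the spike-in probe sets, an alternative chosen after seeing the data, left 4 of the 10 above 0, namely the 3 CP29 genes and PRK; RCA (-0.01), PSAN (-0.03) and PSBY (-0.03) lay just below. All 3 CP29 genes and PRK lay above 0, and PSBW and PSB27 below 0, under the deposited scaling and the 4 other scalings. Of the 11 settings run, those for floor, filter and probe set choice could not change the values of the 10 genes. Centring moves all genes alike, so it could not change the distance between the CP29 and the photosystem II genes.

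**Figure D4:**
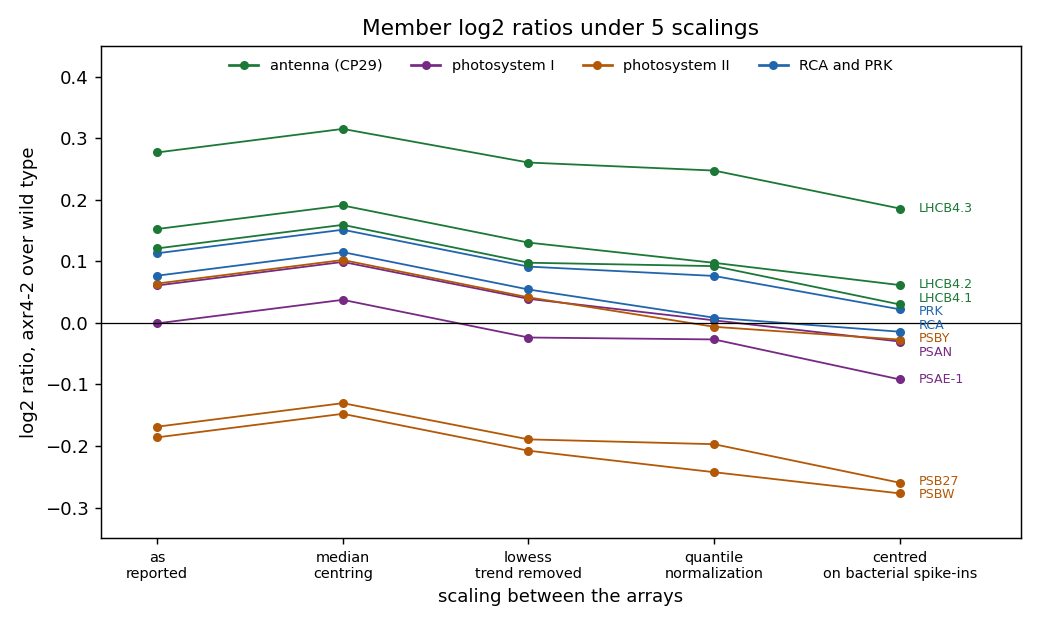
log2 ratio of axr4-2 over wild type (vertical axis) of the 10 genes under the deposited scaling and 4 other scalings of the arrays (horizontal axis), coloured by role; each line joins the values of 1 gene. LHCB4.3 stays at the top (0.19 to 0.32) and PSBW at the bottom (-0.28 to -0.15), and the genes near 0 change sign with the scaling.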

How the data were processed

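The authors deposited 1 intensity per probe set on a linear scale, for 22810 probe sets on each of the arrays; a trimmed mean, without the outer 2% on each side, came to 100 for both, as a common scaling target would leave it. For software, background method and genome build, the sources used here give nothing. Total RNA was labelled as biotin cRNA, per the labels' protocols.

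Names came from the platform annotation by gene identifier: 13513 had 1 gene, 503 several and 8794 none here. RefSeq's gene table (TAIR10.1), used for names only, held 13436 of the 13513. Loci were picked by symbol, or by the names that table lists, since no separate descriptions were given; PSAT and PSAT1, which are no photosystem genes, were left out. Values below the 25th percentile of their array were raised to it. A gene was its brightest probe set, and was measured if the higher of its values was at or above that array's 50th percentile. No test was possible. Genes named are all 10 members, the highest and lowest of each list and any gene 2-fold apart; other names were chosen after their values were seen. Members and lists were chosen with earlier results of these data known. Steps were tested on simulated data. Alternatives covered scaling (median, quantile, lowess with a span of 0.3, spike-ins), floor, filter and probe set choice. Python 3.11.15, numpy 2.4.6, pandas 2.3.3, scipy 1.17.1, statsmodels 0.14.6 and matplotlib 3.10.9 were used.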

Additional observations from a re-analysis of the deposited data

How the results depend on the processing

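With 1 array per genotype, no array could be left out, and no value has a replicate check. No paired analysis was possible because each genotype has a single array. Floor, filter and probe set choice could not change the values of the 10 genes, which are bright and have 1 probe set each, and centring shifts all genes by a constant, so these settings say nothing about stability; several values crossed 0 with the scaling. The count of members above 0, 7 as reported, became 4 when centred on the spike-ins. The median of the 10 ran from -0.02 to 0.11, that of the CP29 genes from 0.06 to 0.19, that of photosystem I from -0.06 to 0.07, that of photosystem II from -0.26 to -0.13 and that of RCA and PRK from 0.00 to 0.13. Over all genes, the 60 higher became 107 with the lowess trend removed, 99 without a filter and 16 with a stricter filter (75th percentile); the 94 lower became 51, 227 and 31, and 147 when centred on the spike-ins. The filters change how many genes are counted; for the other settings the cause was not tested.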

Other observations

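The chloroplast NDH complex, which joins photosystem I in a supercomplex for cyclic electron flow, was looked at after the values had been seen. Of 18 nuclear genes with Ndh or CRR symbols, 8 had a named probe set and 6 were measured, 4 of them (66.7%) below 0, where 54.1% of all measured genes were, with a median log2 ratio of -0.21 and none 2-fold apart. The subunit genes NdhL (835.4 in axr4-2 and 994.4 in wild type, -0.25) and NdhS (587.3 in axr4-2 and 658.5 in wild type, -0.17) were lower, and NdhN was level (522.2 in axr4-2 and 513.2 in wild type, 0.03). Of the CRR genes, CRR41 was at -0.42 and CRR42 at -0.32, while CRR21 was at 0.53 with dim signals of 73.8 in axr4-2 and 51.2 in wild type. CRR22 and CRR28 lay below the filter. Among the 6 measured genes, the ratios of CRR41 and CRR21 alone exceed in size 0.41, the single-probe-set SD taken without regard to brightness.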
